A study of Mus musculus with 3 samples.

Results

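The smooth muscle contractile genes described here are 10 genes of the 27998 counted in single cells of the mouse embryonic thymus: Acta2, Actg2, Myh11, Myl9, Tpm2, Cnn1, Tagln, Actn1, Rgs5 and Prdm6. They were chosen by name with earlier results of these data known, so a count of how many differed describes them and is no independent support. Their raw counts of unique molecular identifiers (UMIs, each marking 1 captured RNA molecule) were read in 3 droplet libraries, 1 per genotype. The libraries were made from C57BL/6 thymic lobes at gestational age E13 to E13.5. One came from wild-type embryos (the control library). Another is labelled homozygous for Tbx1neo2, a hypomorphic allele of a T-box transcription factor gene used to model 22q11.2 deletion syndrome. The last came from embryos homozygous for the Foxn1 allele 1089, a small deletion in the gene of a transcription factor that thymic epithelial cells need. Both alleles are carried throughout the embryo, and the number of embryos behind each library was not given in the sources used here. Each genotype is thus a single sample, so no difference between genotypes was tested or can be set against replicate error. Brackets hold 95% intervals, which cover counting error only.

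Smooth muscle cells contract when myosin filaments pull on actin filaments, after phosphorylation of the myosin light chain. Tropomyosin, calponin and transgelin lie along the actin filaments, and alpha-actinin anchors them to dense bodies. In the embryonic thymus such cells are known mainly from vessel walls, where mural cells (pericytes and vascular smooth muscle cells) surround the endothelium, and many of the mural cells of this region descend from neural crest. Serum response factor and its partner myocardin switch on many contractile genes by binding a short A/T-rich element, the CArG box.

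RefSeq promoter sequences of GRCm38.p6 were read, since the data concern genes that share this element in textbook accounts. They covered 6 of the 10 genes, namely Acta2, Myl9, Cnn1, Tpm2, Rgs5 and Actn1. The promoter set held no entry for Actg2, Myh11, Tagln or Prdm6, so those promoters were not read. In the 250 bases before the start, a full CArG box (CC, 6 bases of A or T, GG) was present in Myl9 alone of the 6, and in 1.47% of the 32851 promoters in the table. Allowing up to 1 other base among the inner 6, boxes were found in Acta2 and Myl9, 2 in each. Of all promoters, 8.59% held at least 1 such box and 0.670% held 2 or more. The pattern reads the same on both strands. Each box is printed with 10 bases on either side, 5′ to 3′ on the strand of the gene, with the box in capitals. Coordinates are those of the printed windows, and distances are those of the boxes inside them. The first Acta2 window lies on the minus strand at chr19:34255438-34255467, and its box starts 84 bases before the start. The second lies at chr19:34255388-34255417, and its box starts 34 bases before it. Those of Myl9 lie on the plus strand at chr2:156775293-156775322 and chr2:156775355-156775384, with boxes starting 161 and 99 bases before the start. Both Acta2 windows also lie in the 5′ untranslated first exon of 1 longer annotated Acta2 transcript, whereas the Myl9 windows lie in no exon of Myl9.
Acta2 box 1: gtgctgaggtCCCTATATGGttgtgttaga
Acta2 box 2: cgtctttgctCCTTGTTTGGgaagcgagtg
Myl9 box 1: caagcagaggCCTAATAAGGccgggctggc
Myl9 box 2: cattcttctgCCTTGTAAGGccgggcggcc
A match of letters is a description and not a measured binding site, and no match says only that these letters are not in this window.

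The control library, the library labelled Tbx1neo2/neo2 and the Foxn11089/1089 library held 82936619, 137498422 and 204655055 UMIs in 6410, 5759 and 12447 barcodes. Before the contractile genes, the genes named in the genotypes were checked. Summed over the kept cells, Tbx1 (chr16:18580979-18590671) had 114, 656 and 1102 UMIs in the 3 libraries in that order, or 1.39 (1.15 to 1.67), 4.81 (4.44 to 5.19) and 5.43 (5.12 to 5.76) counts per 1000000 UMIs (CPM). In fibroblasts its levels were 5.13, 5.66 and 3.48 CPM. Tbx1 was thus not lower in the library labelled Tbx1neo2/neo2 than in the control, and 3′ counts do not show which allele a transcript came from. Foxn1 (chr11:78357577-78386558) was at 38.4, 34.6 and 76.5 CPM. These counts do not check a small deletion inside the gene. The libraries shared 17, 18 and 28 cell barcodes pairwise.

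Cells were assigned to classes by gates on marker genes outside the 10. Among cells with at least 2000 UMIs (5320, 3954 and 10309), a marker was called present at 2 or more UMIs. Pdgfra-positive fibroblasts numbered 683, 1359 and 2333, which was 12.8%, 34.4% and 22.6% of those cells, and their median cell had 9501, 25725 and 14490 UMIs. The mural gate (Pdgfrb present, Pdgfra at 0) held 156, 118 and 64 cells, or 2.93%, 2.98% and 0.621%. In the control, 70 of the 156 (44.9%) held at least 3 of 7 hematopoietic markers, against 1 and 6 cells in the other libraries. Mural values are therefore also given without these cells, a choice made after the gate had been seen. This left 86, 117 and 58 mural cells, with median depths of 12131.5, 30519 and 15564 UMIs, and 86, 115 and 56 of them held UMIs of at least 3 of 20 mural markers. These markers include Pdgfrb, which the gate requires. Most fibroblasts met the same count, 525 of 683, 1275 of 1359 and 1956 of 2333. The mural cells also carried fibroblast genes, since 85, 114 and 58 had at least 3 of 10 fibroblast markers. The gate is therefore a definition by Pdgfrb and Pdgfra and not a separate cell type. Both markers were read in raw counts, so a Pdgfra count of 0 means less in the shallower libraries. Cdh5-positive endothelial cells numbered 47, 88 and 91, and Epcam-positive epithelial cells 1961, 779 and 3812. Of the remaining cells, 1585, 1144 and 1763 fell in no class.

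The first comparison asked how the contractile genes differed between genotypes in fibroblasts. In the library labelled Tbx1neo2/neo2, 8 of the 10 genes were at least 2-fold above the control, beside 15.3% of the 12425 genes compared, and their median log2 ratio was 2.20 against 0.36 for all genes. In the Foxn11089/1089 library 1 of the 10, Myh11, was at least 2-fold above the control, beside 5.58% of all genes. No member was 2-fold lower in either library, beside 3.17% and 3.88% of all genes. Compared with the Foxn11089/1089 library, 8 of the 10 were at least 2-fold higher in the library labelled Tbx1neo2/neo2, beside 7.01%. The summed level of the 10 was 542, 1458 and 578 CPM in the control library, the library labelled Tbx1neo2/neo2 and the Foxn11089/1089 library. The sum was 2.69 times the control (2.61 to 2.78) in the library labelled Tbx1neo2/neo2 and 1.07 times (1.03 to 1.11) in the Foxn11089/1089 library. Both comparisons share the control cells. All values below follow the order control, labelled Tbx1neo2/neo2, Foxn11089/1089.

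Of the actins, Acta2 (ENSMUSG00000035783; chr19:34241090-34255590), the actin of vascular smooth muscle, had 577, 14636 and 2345 UMIs in fibroblasts, or 82.3, 385 and 62.9 CPM. The library labelled Tbx1neo2/neo2 stood 4.68-fold above the control (4.31 to 5.10), and the Foxn11089/1089 library stood below it, at 0.764 times (0.697 to 0.838). Actg2 (ENSMUSG00000059430; chr6:83512905-83536265), the gamma actin of visceral smooth muscle, had 24, 1425 and 161 UMIs, or 3.42, 37.5 and 4.32 CPM. It stood 10.96 times as high in the library labelled Tbx1neo2/neo2 as in the control (7.34 to 17.2), while the interval in the Foxn11089/1089 library, 0.818 to 2.03, included no change. Muscle actins have near-identical coding sequences, so how reads split between Acta2 and Actg2 is uncertain.

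Myh11 (ENSMUSG00000018830; chr16:14194535-14291372), the myosin heavy chain specific to smooth muscle, had 0, 718 and 77 UMIs in fibroblasts. No UMI was found in the 683 control cells, so the ratios are lower bounds set by 3 counts over the class, at least 44.2-fold and at least 4.82-fold higher than the control. Myl9 (ENSMUSG00000067818; chr2:156775420-156781658), a regulatory myosin light chain, differed far less, at 163, 238 and 172 CPM. Its ratio was 1.46 (1.38 to 1.56) and 1.06 (0.994 to 1.13), and the former is read beside the median gene at 0.36 on the log2 scale. Tpm2 (ENSMUSG00000028464; chr4:43514711-43523765), a tropomyosin, was at 173, 194 and 221 CPM. Its ratio of 1.12 (1.06 to 1.19) in the library labelled Tbx1neo2/neo2 lay below the median gene, and it was below 1 with the mean of CPM over cells and with median-of-ratios size factors, which shift every gene alike.

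Cnn1 (ENSMUSG00000001349; chr9:22099216-22109630) encodes calponin, which binds actin and holds back myosin. It had 20, 911 and 130 UMIs in fibroblasts, or 2.85, 24.0 and 3.48 CPM, with the library labelled Tbx1neo2/neo2 8.41-fold above the control (5.41 to 13.8). Tagln (ENSMUSG00000032085; chr9:45929619-45936058), the transgelin gene and an early marker of smooth muscle, was at 50.9, 222 and 31.9 CPM. Its pattern was that of Acta2, 4.37-fold above the control (3.93 to 4.87) in the library labelled Tbx1neo2/neo2 and 0.627 times the control (0.557 to 0.708) in the Foxn11089/1089 library. Actn1 (ENSMUSG00000015143; chr12:80167547-80260371), an alpha-actinin found in many cell types, was at 46.1, 151 and 57.1 CPM, with a ratio of 3.29 (2.94 to 3.69) and 1.24 (1.10 to 1.40).

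Rgs5 (ENSMUSG00000026678; chr1:169655501-169695813), a regulator of G protein signalling used as a pericyte marker, had 94, 5864 and 497 UMIs in fibroblasts, or 13.4, 154 and 13.3 CPM. The library labelled Tbx1neo2/neo2 stood 11.5-fold above the control (9.39 to 14.3), and the intervals of the other pair of libraries overlapped. Prdm6 (ENSMUSG00000069378; chr18:53463583-53575907), a regulator of smooth muscle gene expression expressed in vascular smooth muscle, was at 7.13, 32.2 and 9.84 CPM. Its ratio was 4.52 (3.41 to 6.12) and 1.38 (1.02 to 1.89). The high ratios in the library labelled Tbx1neo2/neo2 rested in part on the deepest cells. Without the 10% of cells with most UMIs, the log2 ratio went from 2.23 to 1.32 for Acta2, from 2.13 to 1.20 for Tagln, from 3.45 to 1.57 for Actg2 and from 3.07 to 1.77 for Cnn1, whereas that of Rgs5 went from 3.53 to 3.04. The lower bound of Myh11 went from 5.47 to 2.98, and in the Foxn11089/1089 library from 2.27 to 1.38. All 8 genes were at least 2-fold higher without these cells too, beside 15.4% of all genes. Median mitochondrial shares also differed, at 2.78%, 6.31% and 5.72% of a fibroblast's UMIs.

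**Figure D1:**
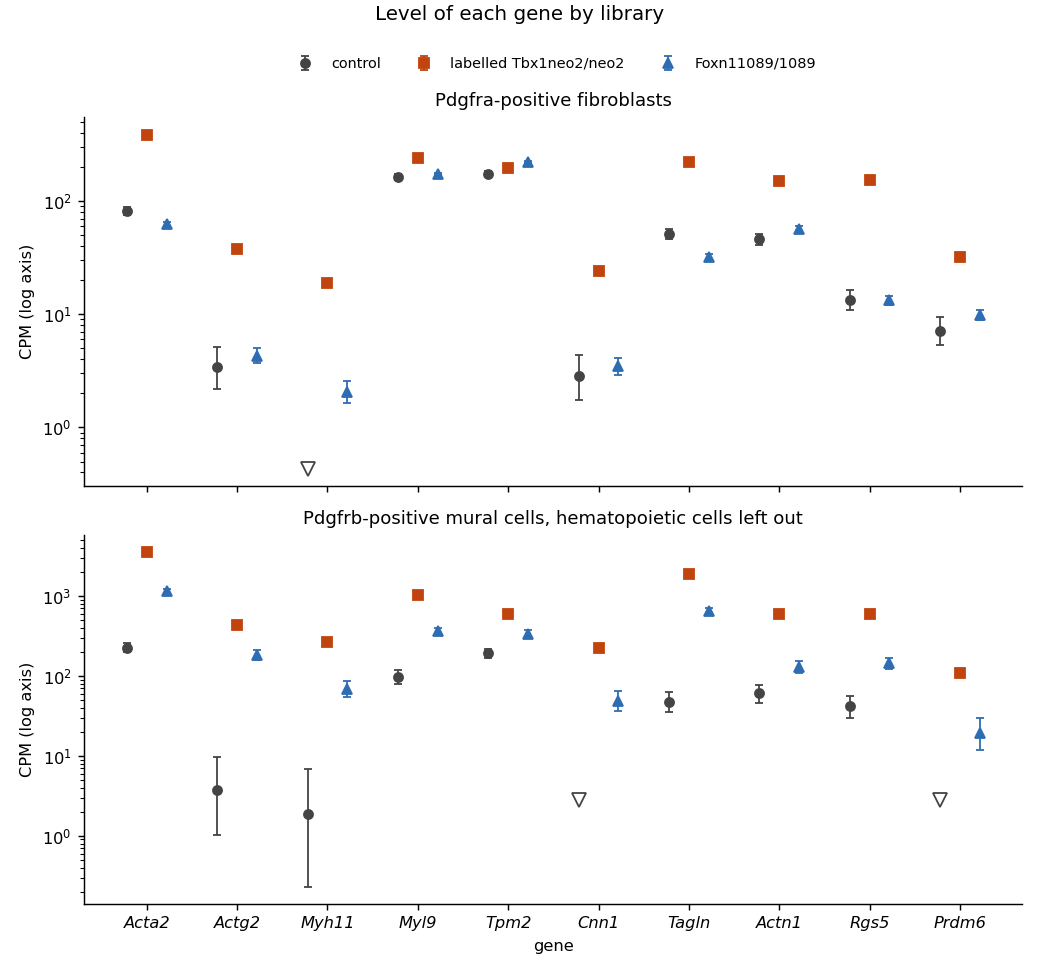
Level of each of the 10 genes (CPM, log axis) in fibroblasts (top) and in mural cells without hematopoietic cells (bottom), with exact 95% Poisson intervals and open triangles at the limit that 0 UMIs allow. In fibroblasts the library labelled Tbx1neo2/neo2 (squares) is highest for every gene but Tpm2, and in mural cells the order is control, Foxn11089/1089, labelled Tbx1neo2/neo2 for all 10 genes.

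In mural cells the differences were larger and involved both libraries compared with the control. Over the whole gate, all 10 genes were at least 2-fold above the control in the library labelled Tbx1neo2/neo2, beside 25.3% of all genes compared, and all 10 in the Foxn11089/1089 library, beside 15.4%. Without hematopoietic cells the counts were 10 (19.9% of all genes) and 9 (11.5%), Tpm2 being the exception, and their median log2 ratios were 4.62 and 2.57 against 0.30 and 0.21 for all genes. No member was 2-fold lower there, beside 3.94% and 3.67% of all genes. The summed level of the 10 genes was 669 (621 to 720), 9251 and 3099 CPM. This was 13.8 times the control (12.8 to 14.9) in the library labelled Tbx1neo2/neo2 and 4.63 times (4.27 to 5.03) in the Foxn11089/1089 library. Compared with the Foxn11089/1089 library, the library labelled Tbx1neo2/neo2 stood 2.99-fold higher, with 9 of the 10 genes at least 2-fold higher, beside 9.13% of all genes.

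Without hematopoietic cells, Acta2 had 238, 13449 and 1178 UMIs in mural cells, or 225, 3532 and 1148 CPM, which was 15.7 (13.8 to 17.9) and 5.11 (4.44 to 5.89) times the control. Over the whole gate the corresponding ratios were 34.0 (30.2 to 38.6) and 9.32 (8.16 to 10.7), and 238 of the 269 control UMIs of Acta2 came from the 86 cells retained. Actg2 had 4, 1677 and 190 UMIs, or 3.78, 440 and 185 CPM. The control count is so low that its ratios, 117 (45.4 to 428) and 49.0 (18.8 to 182), have wide intervals.

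Myh11 had 2, 1019 and 71 UMIs in these mural cells, or 1.89, 268 and 69.2 CPM, with ratios to the control of 142 (39.1 to 1171) and 36.6 (9.77 to 308). Cnn1 and Prdm6 had no UMI in the 86 control cells, against 865 and 50 UMIs of Cnn1 and 417 and 20 of Prdm6 in the other 2 libraries. The lower bounds were at least 80.2-fold and 17.2-fold for Cnn1 and at least 38.6-fold and 6.88-fold for Prdm6. The 86 control cells of this gate were thus at or near 0 for Actg2, Myh11, Cnn1 and Prdm6 and still expressed Acta2. Many control UMIs lay in kept cells of no class: 69.4% for Actg2, 50% for Myh11, 58.5% for Cnn1, 40.8% for Prdm6 and 57.9% for Acta2. The values near 0 therefore describe the gate and not every control cell that may be mural or smooth muscle.

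Tagln was at 47.2, 1871 and 655 CPM in mural cells, 39.6 (30.01 to 53.4) and 13.9 (10.4 to 18.9) times the control. Myl9 was at 97.3, 1028 and 364 CPM, with ratios of 10.6 (8.69 to 13.0) and 3.75 (3.004 to 4.70), so that the light chain gene that differed little in fibroblasts differed strongly in mural cells. Rgs5 was at 41.6, 590 and 144 CPM, 14.2 (10.5 to 19.6) and 3.47 (2.46 to 4.97) times the control. The smallest ratios were those of the broadly expressed genes Actn1, at 9.76 (7.62 to 12.7) and 2.14 (1.58 to 2.94), and Tpm2, at 3.10 (2.68 to 3.60) and 1.75 (1.47 to 2.09).

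These ratios depended on how the gate was drawn. Where 1 UMI of a marker was taken as positive, a gate of 246, 169 and 117 cells with hematopoietic cells left in, Acta2 was at 10.9 (10.1 to 11.6) and 1.86 (1.69 to 2.05) times the control in place of 34.0 and 9.32. Tagln in the Foxn11089/1089 library was then at 1.996 (1.76 to 2.26) in place of 27.5 times, and Rgs5 at 1.37 (1.05 to 1.79) in place of 7.16 times. Myh11 there was at 3.32 (1.75 to 6.55) in place of 75.6 times, Actg2 at 4.34 in place of 57.8, Prdm6 at 3.44 in place of 42.6 and Cnn1 at 3.42 in place of at least 35.5 times. For the library labelled Tbx1neo2/neo2, Tagln went from 93.3 to 9.39 times and Myh11 from 347 to 52.2 times. The number of genes at least 2-fold above the control stayed at 10 in the library labelled Tbx1neo2/neo2, beside 23.6% of all genes, and went from 10 to 5 in the Foxn11089/1089 library, beside 12.9%. The 5 were Actg2, Cnn1, Myh11, Myl9 and Prdm6. Where the gate also asked for at least 1 UMI of Notch3 and left out hematopoietic cells (37, 98 and 19 cells), all 10 were at least 2-fold above the control in both libraries, beside 20.3% and 14.4%, with Acta2 at 16.9 (14.04 to 20.5) and 9.25 (7.59 to 11.4) times.

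**Figure D2:**
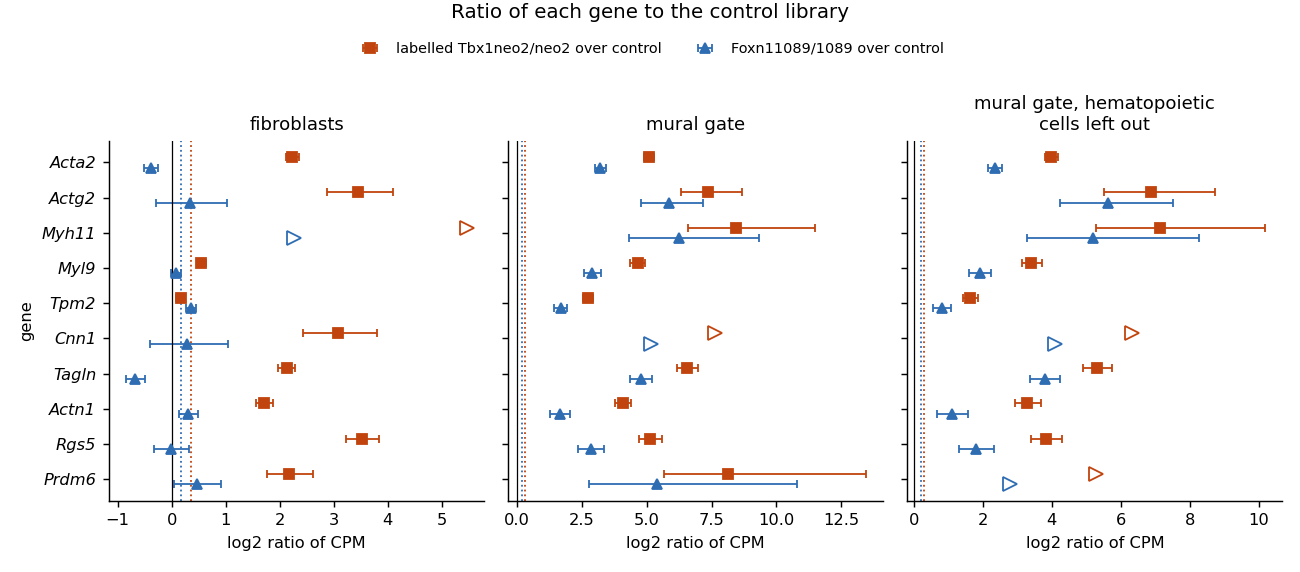
Log2 ratio of each gene's CPM to the control in fibroblasts, in the whole mural gate and in mural cells without hematopoietic cells, with 95% conditional binomial intervals. Open triangles are lower bounds against a control count of 0, and dotted lines mark the median over all genes. In fibroblasts the squares of the library labelled Tbx1neo2/neo2 lie right of their median line except for Tpm2, whereas in both mural panels every gene of both libraries lies right of it.

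The next comparison was between mural cells, hematopoietic cells left out, and fibroblasts of the same library, which shared preparation and sequencing. In the control, Acta2 was 2.73 times (2.34 to 3.18) and Rgs5 3.10 times (2.12 to 4.48) as high in mural cells as in fibroblasts. Tagln was not higher there, at 0.928 times (0.676 to 1.25), and Myl9 was lower, at 0.598 times (0.484 to 0.732). In the library labelled Tbx1neo2/neo2 all 10 genes were higher in mural cells than in fibroblasts, from 3.07 times for Tpm2 to 14.2 times for Myh11. In the Foxn11089/1089 library all 10 were higher as well, from 1.52 times for Tpm2 to 42.9 times (34.6 to 53.3) for Actg2, with Acta2 at 18.3 and Tagln at 20.5 times. Mural cells were few there, however, and the top 6 of the 58 cells held 77.6% of the UMIs of these genes once every cell was thinned at random to 2000 UMIs.

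In endothelial and epithelial cells the sum of the 10 genes was lower than in fibroblasts of the same library, whereas Actn1 was not always lower. In endothelial cells the sum of the 10 was 49.8, 229 and 62.2 CPM (40, 754 and 249 UMIs), most of it Actn1. Actn1 was at 36.1, 151 and 33.5 CPM there, 4.18-fold above the control (2.87 to 6.30) in the library labelled Tbx1neo2/neo2, and only 47 control cells stood behind that comparison. Fibroblasts of that library were also at 151 CPM. In epithelial cells the sum was 98.6, 177 and 79.8 CPM. Of the 9 genes with enough UMIs, 4 were at least 2-fold above the control in the library labelled Tbx1neo2/neo2, beside 15.8% of all genes. The 4 were Acta2, at 3.004, 16.4 and 3.95 CPM, Actg2, Cnn1 and Myh11. In the Foxn11089/1089 library 2 of the 9 were at least 2-fold above the control and 0 below. Their median log2 ratio there was 0.05 against 0.27 for all genes. Actn1 was at 48.0, 85.1 and 34.6 CPM, against 46.1 CPM in control fibroblasts, and epithelial cells held 44.7% of the 38 control UMIs of Myh11. As a measure of free RNA, red blood cells, which should lack these genes, held a sum of 2.37, 16.5 and 8.78 CPM (8, 113 and 231 UMIs). Ptprc-positive hematopoietic cells held 54.8, 108 and 98.5 CPM.

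Because depth per cell differed, each cell was thinned to 2000 UMIs before shares of cells were compared. The classes remained those gated on raw counts, so thinning did not even out the depth at which cells entered a class. How far that affected the shares and levels was not tested. In fibroblasts, Acta2 was then found in 9.66% (7.55 to 12.1), 13.8% (12.0 to 15.8) and 6.22% (5.27 to 7.27) of cells, and before thinning in 21.7%, 33.7% and 21.2%. The share in the library labelled Tbx1neo2/neo2 exceeded the control by less than the level did, and the mean number of Acta2 UMIs in a cell that had any was 1.65, 3.64 and 1.66. Rgs5 was found in 1.76%, 10.96% and 2.27% of fibroblasts and Prdm6 in 0.732%, 5.004% and 1.84%. In red blood cells, thinned alike from median depths of 8701.5, 18666.5 and 12438 UMIs, Acta2 was found in 0%, 1.68% and 0.251% of cells, where 0 of 326 allows up to 0.920%.

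In mural cells without hematopoietic cells, Acta2 was found after thinning in 26.7% (17.8 to 37.4), 58.1% (48.6 to 67.2) and 24.1% (13.9 to 37.2) of cells. The control and Foxn11089/1089 shares overlapped although the Foxn11089/1089 level was higher, and a cell with any Acta2 held a mean of 1.83, 9.69 and 8.64 Acta2 UMIs. Tagln was found in 5.81%, 55.6% and 15.5% and Myl9 in 8.14%, 64.1% and 22.4% of mural cells. Prdm6 was found in 0%, 29.9% and 3.45%, where 0 of 86 cells allows up to 3.49%.

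The design also asked whether the genes were found together in single cells. At least 3 of the 10 were present in 30 of 683 control fibroblasts (4.39%, 2.98 to 6.21), in 195 of 1359 (14.3%, 12.5 to 16.3) in the library labelled Tbx1neo2/neo2 and in 129 of 2333 (5.53%, 4.64 to 6.54) in the Foxn11089/1089 library. The share was 3.27 times the control (2.22 to 4.97) in the library labelled Tbx1neo2/neo2, and the intervals of the other pair overlapped. Tpm2, Myl9 and Actn1 are widely expressed, so the count was repeated over the other 7 genes. At least 3 of the 7 were present in 4, 96 and 9 fibroblasts, or 0.586%, 7.06% and 0.386%. Thinning to 5000 UMIs in place of 2000 lowered the ratio of the shares for the 10 genes to 1.45.

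In mural cells without hematopoietic cells, at least 3 of the 10 genes were present in 4 of 86 (4.65%, 1.28 to 11.5), 73 of 117 (62.4%, 53.0 to 71.2) and 11 of 58 (19.0%, 9.87 to 31.4). The share in the library labelled Tbx1neo2/neo2 was 13.4 times the control (5.02 to 50.5) and lay above that of the Foxn11089/1089 library with no overlap of intervals. At least 6 of the 10 were found in 0, 45 and 6 mural cells and in 1, 48 and 3 fibroblasts. The largest number in a cell was 4, 9 and 10 in mural cells and 6, 9 and 6 in fibroblasts. In the other classes such cells were rare, with 0, 3 and 6 epithelial cells, 0, 1 and 0 endothelial cells, 1, 0 and 0 Ptprc-positive cells and no red blood cell at 3 or more genes.

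**Figure D3:**
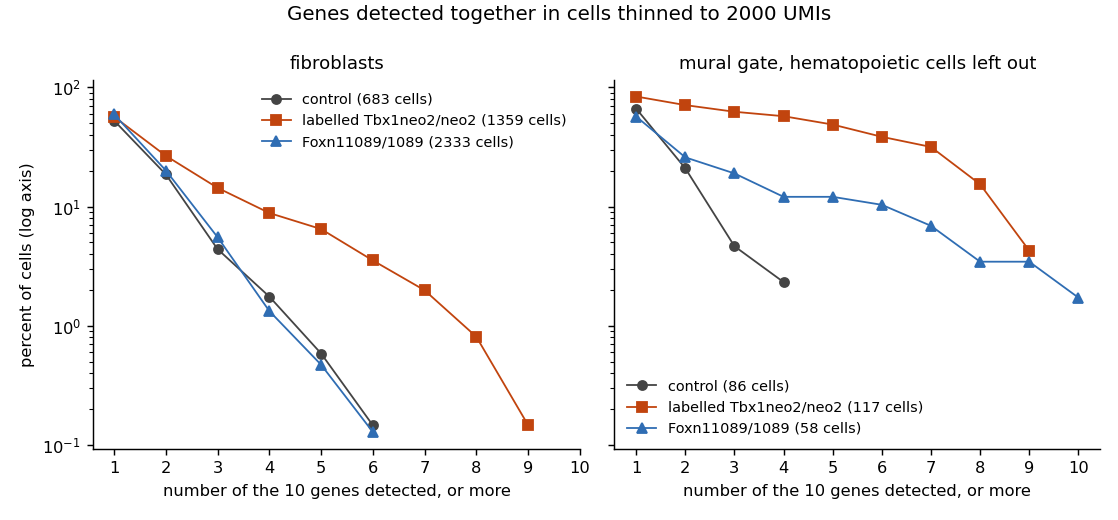
Percent of fibroblasts and of mural cells without hematopoietic cells (log axis) in which at least the given number of the 10 genes was detected after thinning to 2000 UMIs. The fibroblast curve of the library labelled Tbx1neo2/neo2 lies above the others from 2 genes on and reaches 9 genes against 6, while in mural cells the control curve ends at 4 genes.

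The gates leave out many cells, so the same count was made over all kept cells with at least 2000 UMIs whatever their class, an alternative added after the data were seen. At least 3 of the 10 genes were present in 71 of 5320 (1.33%, 1.04 to 1.68), 401 of 3954 (10.1%, 9.22 to 11.1) and 208 of 10309 (2.02%, 1.76 to 2.31) cells. The library labelled Tbx1neo2/neo2 had 7.60 times the control share (5.89 to 9.92) and the Foxn11089/1089 library 1.51 times (1.15 to 2.01). Over the 7 genes it was 23.8 (13.6 to 45.4) and 1.27 (0.648 to 2.64). Of the cells with at least 3 of the 10 genes, fibroblasts made up 42.3%, 48.6% and 62.0%. The mural gate made up 5.63%, 18.2% and 5.29%, and cells in no class 50.7%, 32.2% and 29.8%. Of those with at least 3 of the 7, fibroblasts made up 30.8%, 41.7% and 28.1%. The mural gate made up 0%, 25.7% and 21.9% of them, and cells in no class 69.2%, 31.7% and 46.9%.

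The genes were unevenly spread over fibroblasts. The median fibroblast held 1 UMI of the 10 genes among 2000 in each library, whereas the 99th percentile was 7, 25.4 and 7 UMIs and the highest cell 21, 59 and 22. The top 10% of fibroblasts held 44.7%, 63.6% and 40.5% of these UMIs. The median mural cell without hematopoietic cells held 1, 9 and 1 UMIs and the highest 7, 67 and 74. In fibroblasts the 75th percentile was 1, 2 and 2 UMIs and the 90th was 3, 5 and 3. The fibroblast difference of the library labelled Tbx1neo2/neo2 was thus widest in a tail of cells with many contractile transcripts. A median of 1 UMI is too coarse to show whether the other fibroblasts were alike. In mural cells of that library the difference reached the median cell.

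Pairs of genes were compared in the same thinned cells. Among fibroblasts with Acta2, Tagln was present in 12 of 66 (18.2%), 109 of 188 (58.0%, 50.6 to 65.1) and 24 of 145 (16.6%), against 4.38%, 5.04% and 3.15% of those without Acta2. Rgs5 was present in 6.06%, 49.5% and 6.21% of fibroblasts with Acta2, against 1.30%, 4.78% and 2.01% without. The contractile genes and the pericyte marker thus occurred in the same cells most clearly in the library labelled Tbx1neo2/neo2. Prdm6 behaved alike there, with Acta2 in 33 of 68 fibroblasts that had Prdm6 (48.5%) and in 12.0% of those without, but in the Foxn11089/1089 library the shares were 6.98% (3 of 43) and 6.20%. Among mural cells with Acta2, Tagln was present in 2 of 23 (8.70%), 59 of 68 (86.8%) and 7 of 14, and among those without it in 4.76%, 12.2% and 4.55%.

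Fibroblasts were then split by Pdgfrb, the receptor that recruits mural cells to vessels. To remove the difference in depth, cells with at least 5000 UMIs were thinned to 5000 before the split, a choice made after the data were seen. In cells where thinning left no Pdgfrb UMI (469, 866 and 1833) the sum of the 10 genes was 556, 1178 and 550 CPM. In cells where thinning left at least 1 (181, 485 and 471) the sum was 516, 1910 and 689 CPM. The ratio of the library labelled Tbx1neo2/neo2 to the control was 2.12 (2.04 to 2.21) in the former and 3.70 (3.48 to 3.94) in the latter. At least 3 of the 7 restricted genes were present in 1.28%, 7.04% and 0.818% of the fibroblasts left with no Pdgfrb UMI. In those left with at least 1, the shares were 1.10%, 17.3% (14.1 to 20.99) and 2.55%. Fibroblasts left with no Pdgfrb UMI after thinning can still hold Pdgfrb UMIs in their raw counts.

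The split on raw counts, which did not equalize depth, gave another picture. Fibroblasts with 0 raw Pdgfrb UMIs (385, 350 and 1250) had a summed ratio of 0.946 (0.896 to 0.998) in the library labelled Tbx1neo2/neo2, and 1 of the 9 genes compared was at least 2-fold above the control, beside 15.1% of all genes. Those with at least 2 raw UMIs (124, 683 and 461) had a summed ratio of 3.49 (3.26 to 3.73), with 9 of 10 genes at least 2-fold higher, beside 20.6%. Under both splits the ratio was larger in the Pdgfrb-positive cells. The splits differ in the depth at which Pdgfrb was read, in the cells kept and in the threshold for Pdgfrb. In the library labelled Tbx1neo2/neo2, the group at 0 held 866 cells after thinning and 350 on raw counts. The thinned group thus includes cells with raw Pdgfrb UMIs, and its ratio does not describe fibroblasts that lack Pdgfrb. Which of these differences moved the ratio was not tested.

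**Figure D4:**
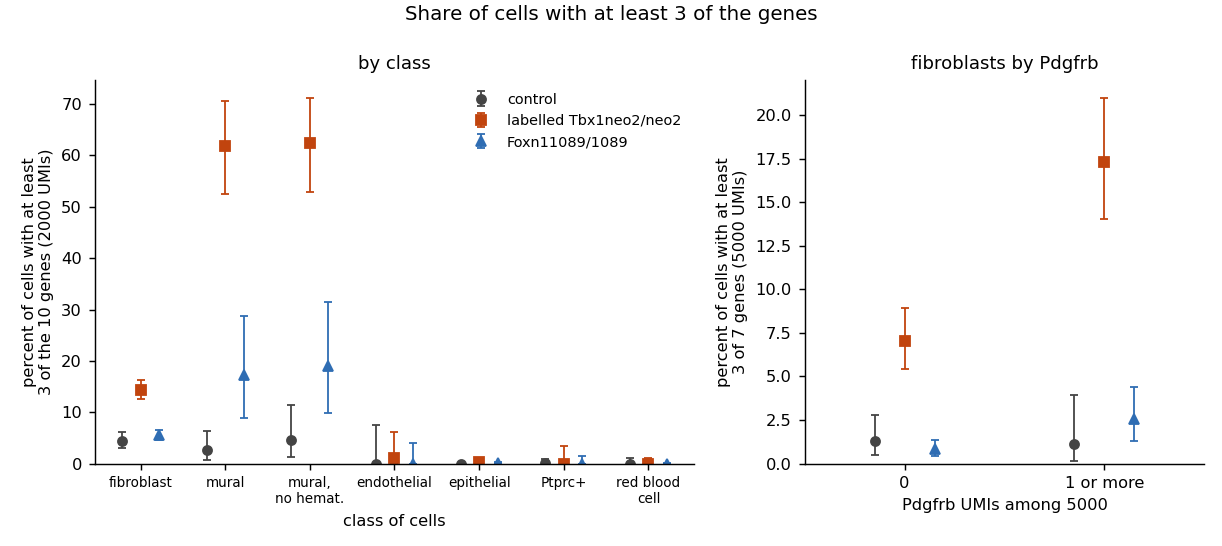
Left, percent of cells in each class with at least 3 of the 10 genes after thinning to 2000 UMIs; right, percent of fibroblasts with at least 3 of 7 genes after thinning to 5000 UMIs, by whether Pdgfrb was detected; bars are exact 95% binomial intervals. Mural cells of the library labelled Tbx1neo2/neo2 stand at 62.4% without hematopoietic cells. Fibroblasts of that library with Pdgfrb detected after thinning, at 17.3%, lie above those where it was not detected, at 7.04%.

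The regulators of smooth muscle genes were described from a list of 16. In fibroblasts of the library labelled Tbx1neo2/neo2, 8 of the 15 with enough UMIs were at least 2-fold above the control and none 2-fold below, beside 15.3% and 3.17% of all genes, with a median log2 ratio of 1.29 against 0.36. In the Foxn11089/1089 library 1 was higher (Tbx18) and 2 were lower (Heyl, and Myocd on 5 and 2 UMIs), beside 5.58% and 3.88%, with a median of 0.07 against 0.17. Myocd, which encodes myocardin, was at 0.285, 3.21 and 0.134 CPM, 11.3 times the control (3.05 to 94.0) in the library labelled Tbx1neo2/neo2. Foxf1, a forkhead gene of visceral mesenchyme, was at 1.28, 15.6 and 1.29 CPM, 12.2 times the control (6.38 to 26.8). In mural cells without hematopoietic cells, Foxf1 was at 0, 42.5 and 0 CPM, at least 15.01-fold above the control, and 7 of 13 regulators were at least 2-fold higher and 1, Tbx2, was lower, beside 19.9% and 3.94% of all genes. Srf, the serum response factor gene, stood at 1.17 (0.970 to 1.43) and 0.782 (0.517 to 1.21) times the control in fibroblasts and in mural cells of the library labelled Tbx1neo2/neo2, and both intervals included no change.

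Within that library, genes outside the 10 were compared between the 195 fibroblasts with at least 3 of the 10 genes and the other 1164. The genes named here were chosen after their values were seen. Myocd was at 16.6 CPM in the former and 0.445 in the latter, 37.3-fold higher (21.3 to 70.5). Heyl, a Notch target, was at 93.9 against 16.8 CPM, and Mylk, the myosin light chain kinase gene, at 96.6 against 16.3 CPM. Notch3, a receptor of vascular smooth muscle, was at 98.5 against 41.3 CPM, and Pdgfrb at 157 against 107 CPM. Lower in the co-detecting cells were Dcn, which encodes decorin, at 348 against 979 CPM, and Tbx5, at 11.5 against 38.1 CPM. Among other foregut mesenchyme genes, Barx1, Tbx4 and Wnt2 were also lower there, at 25.7 against 83.7, 3.69 against 7.72 and 2.30 against 6.45 CPM, whereas Foxf1 and Hhip were higher, at 21.7 against 14.4 and 9.83 against 3.56 CPM. Srf differed little, at 19.7 against 21.2 CPM. In mural cells of the same library, Myocd was likewise at 42.6 against 0.850 CPM and Dcn at 94.6 against 986 CPM.

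**Figure D5:**
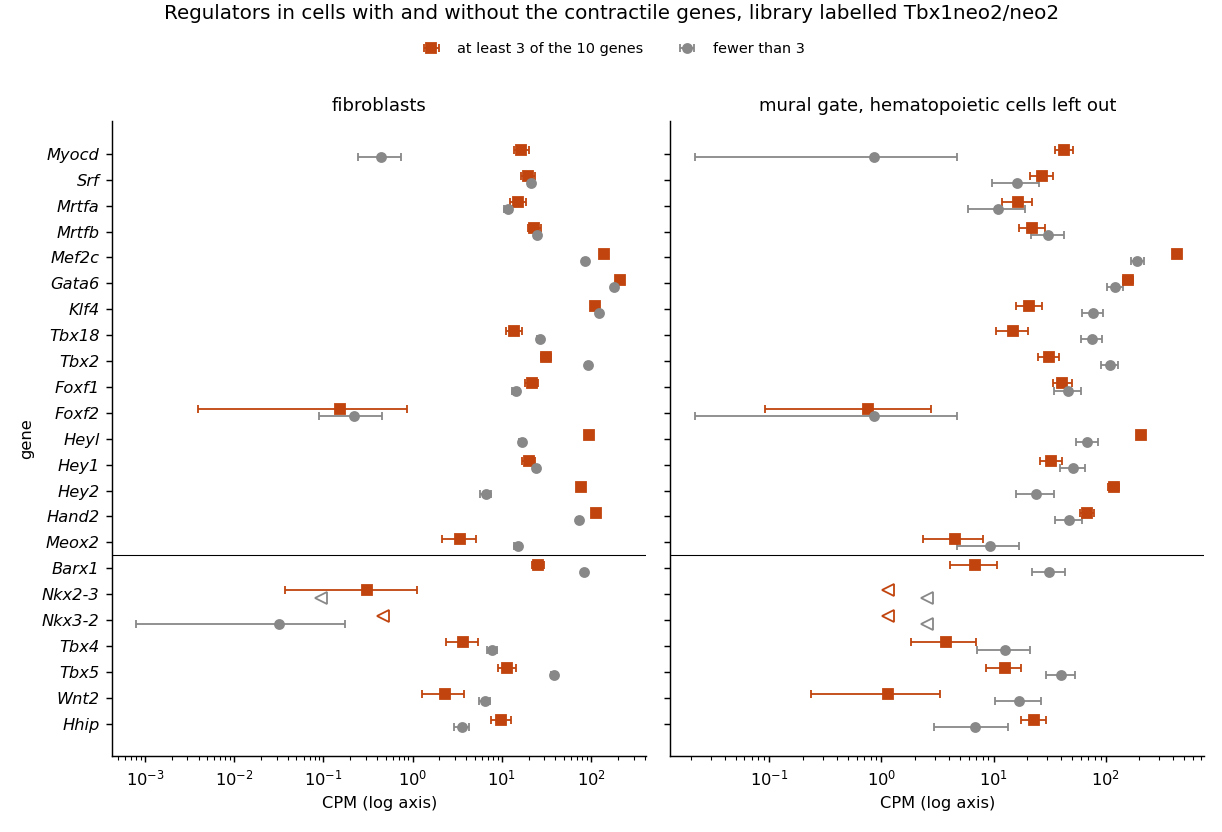
CPM (log axis) of 16 smooth muscle regulators (above the line) and 7 foregut mesenchyme genes (below it) in cells of the library labelled Tbx1neo2/neo2 with at least 3 of the 10 contractile genes (squares) and with fewer (circles), with exact 95% Poisson intervals and open triangles at the limit that 0 UMIs allow. The widest gap in both panels is that of Myocd, 16.6 against 0.445 CPM in fibroblasts and 42.6 against 0.850 CPM in mural cells.

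Other genes of the contractile apparatus were counted from a list of 26. In fibroblasts of the library labelled Tbx1neo2/neo2, 5 of 25 with enough UMIs were at least 2-fold above the control and 0 were below, or 20% beside 15.3% of all genes, and the median log2 ratio was 0.57 against 0.36. The share lies near that of all genes. The 5 were Mylk, Lmod1 (leiomodin), Nexn (nexilin), Itga1 (an integrin) and Ppp1r12b (a myosin phosphatase subunit), with ratios of 6.39, 5.72, 4.18, 4.55 and 2.44. In mural cells without hematopoietic cells it was 16 of 22, beside 19.9% of all genes, with a median of 1.45 against 0.30. The highest there were Nexn, at 0.945, 110 and 27.3 CPM (116 times the control, 20.7 to 4590), Lmod1, at 0, 59.4 and 18.5 CPM (at least 20.9-fold higher), and Mylk, at 9.45, 170 and 35.1 CPM (18.0 times, 9.70 to 37.6). In the Foxn11089/1089 library 5 of the 22 (Nexn, Palld, Lmod1, Ppp1r12b and Mylk) were at least 2-fold above the control, beside 11.5% of all genes, with a median of 0.34 against 0.21. Over the whole mural gate the highest list genes in the library labelled Tbx1neo2/neo2 were again Nexn (142 times the control, 39.1 to 1176), Mylk (43.99 times, 23.8 to 92.2), Lmod1 (at least 51.3-fold) and Foxf1 (at least 36.8-fold). Broadly expressed genes differed less, with Myl6 at 1.34 times (1.25 to 1.43) and Tpm4 at 1.13 times (1.02 to 1.25) the control in mural cells of the library labelled Tbx1neo2/neo2.

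Markers of mural cells differed among themselves and by how the gate was drawn. In mural cells without hematopoietic cells, the 20 markers summed to 2405, 1736 and 925 CPM, led by Pdgfrb in the Foxn11089/1089 library and by Ebf1 in the other libraries. Of 14 compared, 5 were at least 2-fold above the control and 3 below it in the library labelled Tbx1neo2/neo2, beside 19.9% and 3.94% of all genes. In the Foxn11089/1089 library 0 were above and 7 below, beside 11.5% and 3.67%. Over the whole gate the counts were 7 above and 2 below, beside 25.3% and 7.85% of all genes, with a median log2 ratio of 0.98 against 0.32. For the Foxn11089/1089 library they were 0 above and 2 below, beside 15.4% and 5.47%, with a median of -0.14 against 0.21. Without hematopoietic cells, the 5 above were Notch3, Mcam, Cspg4, Gucy1a1 and Rgs4. The 3 below were Ndufa4l2, Cox4i2 and Kcnj8, genes known from pericytes, at 0.190 (0.161 to 0.225), 0.196 (0.164 to 0.234) and 0.332 (0.289 to 0.382) times the control. Rgs4, Trpc6 and Casq2 had no UMI in control mural cells, and Higd1b and Vtn had none in the Foxn11089/1089 library. In fibroblasts the list summed to 1034, 1023 and 749 CPM. Of 15 compared there, 4 were at least 2-fold above the control and 2 below in the library labelled Tbx1neo2/neo2, beside 15.3% and 3.17% of all genes, with a median log2 ratio of 0.06 against 0.36. The 4 were Rgs4, at 0.856, 8.95 and 1.96 CPM, Mcam, at 5.85, 17.7 and 2.63 CPM, Cspg4, at 8.84, 21.2 and 5.23 CPM, and Gucy1a1, and the 2 were Ndufa4l2 and Cox4i2. There was 1 above (Rgs4) in the Foxn11089/1089 library and 3 below (Mcam, Ndufa4l2 and Cox4i2), beside 5.58% and 3.88%, with a median of -0.47 against 0.17. The part of these markers in the contractile gene levels was not tested. The cells in the mural gate thus differed between libraries in more than the 10 genes.

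Markers of neighbouring tissues were counted in the same cells. In fibroblasts, 4 of 6 foregut mesenchyme markers compared (Tbx5, Tbx4, Foxf1 and Hhip) were at least 2-fold above the control in the library labelled Tbx1neo2/neo2. This stood beside 15.3% of all genes. In the Foxn11089/1089 library it was 1 of 6 (Tbx4), beside 5.58%. Tbx5 was at 1.14, 33.5 and 1.10 CPM (29.4 times the control, 14.9 to 68.2) and Tbx4, another T-box gene of lung and limb mesenchyme, at 0.285, 7.03 and 1.63 CPM (24.6 times, 6.76 to 205). The list summed to 148, 140 and 204 CPM, led by Barx1, because Barx1 was at 136, 73.8 and 187 CPM. Nkx2-3 and Nkx3-2 had no UMI in control or Foxn11089/1089 fibroblasts. In mural cells the list summed to 82.2, 108 and 100 CPM, led by Barx1, Foxf1 and Barx1. The part of these markers in the contractile gene levels was not tested.

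Of striated muscle, the 10 heart markers summed to 4.72, 48.6 and 16.6 CPM in mural cells without hematopoietic cells, led by Tnnt2 except in the control, where Tnnt2 and Tnni3 were level, and Myh6 and Nppb were at 0 in each. The 14 skeletal muscle markers summed to 41.6, 72.2 and 47.7 CPM, led by Tnnt1 in the control and by Tnni1 in the others, with Myf6 at 0 in each. In fibroblasts the heart list summed to 5.70, 8.90 and 5.17 CPM, and the skeletal list to 37.6, 34.3 and 38.5 CPM. UMIs of at least 2 of these 24 markers were held by 1, 40 and 7 mural cells at their unequal depths. Without such cells, 8 genes in fibroblasts and 10 in the mural gate of the library labelled Tbx1neo2/neo2 were at least 2-fold above the control, beside 15.4% and 22.1% of all genes. In fibroblasts the log2 ratio of Acta2 went from 2.23 to 1.83, that of Actg2 from 3.45 to 2.02 and the lower bound of Myh11 from 5.47 to 3.80, and in the mural gate Acta2 went from 5.09 to 4.46. The part of the striated muscle markers in the contractile gene levels was not tested further.

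The 7 hematopoietic markers summed to 41.9, 6.71 and 15.01 CPM in fibroblasts. Hemoglobins and other red blood cell markers summed to 2610, 1343 and 23050 CPM in fibroblasts. The lowest ratios of any list in fibroblasts of the library labelled Tbx1neo2/neo2 were those of such genes, Hbb-bh1 at 0.0365, Cd52 at 0.0798, Rac2 at 0.101 and Hba-x at 0.159 times the control. In mural cells without hematopoietic cells the red blood cell list summed to 4766, 245 and 19073 CPM. All 6 genes compared were at least 2-fold lower in the library labelled Tbx1neo2/neo2, beside 3.94% of all genes, and in the Foxn11089/1089 library 4 were higher and 2 lower, beside 11.5% and 3.67%. The lowest ratios in the library labelled Tbx1neo2/neo2 there were 0.0451 for Hbb-y, 0.0257 for Hba-a2, 0.0256 for Hba-a1 and 0.0115 for Hba-x, and over the whole gate 0.0203 for Lcp1 and Laptm5, 0.00797 for Hba-x and 0.00768 for Rac2. Their part in the contractile gene levels was not tested.

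Fibroblast markers summed to 6142, 7210 and 5488 CPM in fibroblasts and to 2197, 3891 and 3279 CPM in mural cells without hematopoietic cells. In those mural cells, 5 of 8 fibroblast markers were at least 2-fold above the control and 1 below in the library labelled Tbx1neo2/neo2, beside 19.9% and 3.94% of all genes. The counts in the Foxn11089/1089 library were 4 above and 0 below, beside 11.5% and 3.67%. Endothelial markers summed there to 119.98, 66.2 and 29.2 CPM, arterial endothelium markers to 86.9, 129 and 76.01 CPM and epithelial markers to 122, 40.4 and 72.1 CPM. In fibroblasts these 3 lists summed to 51.8, 37.7 and 34.8 CPM, to 87.8, 66.4 and 68.3 CPM and to 39.5, 32.96 and 28.8 CPM. Their part in the contractile gene levels was not tested.

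Over 15 points, the 5 marker-gated classes in 3 libraries, the genes whose log2 level most resembled that of the summed 10 genes were described by Pearson's r among 13418 genes. They were Tnnt2 (0.96), Itgb8 (0.96), Vgll3 (0.94), Lmna (0.94) and Dclk1 (0.94). The 10 genes themselves, each part of the sum, had values from 0.81 for Tpm2 to 0.97 for Acta2. The points share libraries and depth, so these values are descriptions only.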

How the data were processed

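The authors sequenced 1 library of 3′ gene expression per genotype from trypsin-dissociated E13 to E13.5 thymic lobes. Reads were aligned to mm10 and UMIs tallied by Cell Ranger 3.0.0. The Seurat clusters of the study were not used here. The deposited values are raw counts per gene and barcode, without normalization, and the annotation release behind them is not given in the sources used here. Reads that match near-identical copies can be split or lost at that step.

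A cell was kept if it had 200 or more genes and a mitochondrial share below 20% (5932, 5516 and 11772 cells), and classes were formed among those with at least 2000 UMIs. A cell was Pdgfra-, Pdgfrb-, Cdh5-, Epcam- or Ptprc-positive at 2 or more UMIs of that marker, and a red blood cell when at least 50% of its UMIs were hemoglobin. Cells positive for markers of several classes were left out, apart from Pdgfra-positive cells with Pdgfrb, which counted as fibroblasts. Pdgfra and Epcam were both present in 26, 49 and 255 cells. No doublet caller was run. Levels are a gene's UMIs in a class per 1000000 UMIs of that class (CPM). Genes reaching 100 UMIs per class were compared between libraries, and at least 2-fold counted as a difference. Shares were taken after thinning each cell at random without replacement. Intervals are exact (Poisson for sums, Clopper-Pearson for shares, conditional binomial for ratios) at 95%, and a count of 0 was set to 3 counts. No test was run, since cells are not replicates. The calculations were tested on simulated data.

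The 10 genes and the gene lists were chosen with earlier results of these data known. All 162 list genes matched a symbol in the files. The result of 1 list is not reported here. From the lists, the text names the 4 highest and the 4 lowest ratios per class of the library labelled Tbx1neo2/neo2 to the control, markers at 0 UMIs, and other genes said to be chosen after their values were seen. Members of most small counts are also named. Likeness used log2(CPM + 1). Coordinates are those of GENCODE mouse release M21 on GRCm38. Python 3.11.15, numpy 2.4.6, scipy 1.17.1, pandas 2.3.3 and matplotlib 3.10.9 were used.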

Additional observations from a re-analysis of the deposited data

Results flagged for a closer look

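The 10 contractile genes were also counted in kept cells outside the classes. In cells with at least 2000 UMIs that fell in no class, their sum was 259 CPM (253 to 266) in the control library, 905 CPM in the library labelled Tbx1neo2/neo2 and 414 CPM in the Foxn11089/1089 library. In kept cells with fewer than 2000 UMIs it was 295 CPM (252 to 342), 1078 CPM and 469 CPM. In both kinds of cells the levels of both other libraries lay above the interval of the control, outside the levels compared by class. The cells in no class held 1364, 12629 and 2967 UMIs of Acta2, or 59.6, 332 and 83.1 CPM. Their cell types were not determined.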

How the results depend on the processing

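The number of the 10 genes at least 2-fold above the control was 8 (library labelled Tbx1neo2/neo2) and 1 (Foxn11089/1089 library) in fibroblasts and 10 and 10 in the mural gate. Of 50 repeats under other settings, 48 stayed within 1.5 times these counts. With markers present at 1 UMI, the mural count of the Foxn11089/1089 library was 5, and with the mean of CPM over cells its fibroblast count was 0. The share of cells with at least 3 genes was 3.27 and 1.26 times the control in fibroblasts and 24.1 and 6.70 times in the mural gate. In the library labelled Tbx1neo2/neo2 the fibroblast ratio was 1.45 after thinning to 5000 UMIs, 1.43 for at least 2 genes, 5.03 for at least 4 and 12.1 for at least 3 of 7. Its mural ratio was 6.91 with markers at 1 UMI, 5.46 after thinning to 5000 UMIs and 5.78 for at least 2 genes. In the Foxn11089/1089 library the mural ratio was 1.71 with markers at 1 UMI and 1.92 for at least 2 genes. Its fibroblast ratio was 0.743 after thinning to 1000 UMIs, 0.756 for at least 4 genes and 0.659 for at least 3 of 7, so its direction is not settled. The causes were not tested. Of 496 log2 ratios of single genes, 487 kept their sign, but 185 were counted as moved in size. Among shares of cells with a single gene, 81 of 180 were counted as moved, and among co-detection ratios 12 of 56. Fibroblast ratios of Tpm2 in the library labelled Tbx1neo2/neo2 went from 0.17 to -0.12 with median-of-ratios size factors, a scaling that lowered all of that library's fibroblast log2 ratios by the same amount. The hematopoietic, Notch3, all-cell and 5000-UMI Pdgfrb alternatives were chosen after seeing the data. Cell number limits the mural shares, since a count of 0 allows up to 3.49% in the 86 control cells and up to 5.17% in the 58 Foxn11089/1089 cells. No paired analysis was possible because each genotype had 1 library.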
